A study of Mus musculus with 25 samples.

Results

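The genes of the mitochondrial chromosome were described as every row that the deposited expression tables place on chromosome MT. The 5 tables, 1 per group, list 35 such genes among 30524 genes in all. They are 13 protein-coding genes (mRNAs), 2 ribosomal RNAs (rRNAs) and 20 transfer RNAs (tRNAs), by the biotype given in the tables. The reference annotation holds 37 genes on this chromosome, and mt-Tf and mt-Tv, the tRNAs for phenylalanine and valine, are not in the tables. Of the 35 genes, 32 stand in all 5 tables, and 30 passed the expression filter used for testing (13 mRNAs, 2 rRNAs and 15 tRNAs).

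RNA sequencing was done on livers of C3H/HeJ mice, a strain prone to liver cancer, labelled as males of 5 weeks at arrival. In 4 of the groups diethylnitrosamine (DEN), an alkylating liver carcinogen, was injected at 25 mg/kg, 2 times a week for 3 weeks per cycle, in 5 cycles. After a month without injections, 3 weeks of gavage followed. The DEN_CAF_SOR group (5 libraries) received caffeine at 50 mg/kg 3 times a week and sorafenib, a multikinase inhibitor used against liver cancer, at 30 mg/kg 2 times a week. The DEN_SOR group (4 libraries) received sorafenib, and the DEN_CAF group (5 libraries) received caffeine. The DEN group (6 libraries) received the carcinogen and then the drug vehicles, which were tap water for caffeine and corn oil with 2% DMSO for sorafenib. The Untreated group (5 libraries) received saline in place of the carcinogen, with the same vehicles. No gene was altered in any group. Sample titles name separate mice, and nothing else in the labels shows whether a piece of liver held tumour.

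Assigned reads ran from 14750278 to 21992613 per library. Albumin and 7 further hepatocyte markers summed to between 25864 and 89949 FPKM (reads scaled by gene length and by the library's assigned reads), as in liver. Markers of skeletal and heart muscle summed to at most 1.86 FPKM and those of fat to at most 20.6 FPKM. Xist, an RNA made from the inactive X of females, had 79.7, 85.9 and 45.3 FPKM in Untreated libraries 3, 4 and 5 and at most 0.0600 FPKM in the other 22, although the labels say male. For DEN against Untreated, the class medians and the calls of mitochondrial genes are also given without these 3 libraries. Other values of that comparison include them, such as shares over all genes, cell type markers and nuclear lists. In bulk tissue, fewer cells of a type and less RNA per cell cannot be told apart.

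Mitochondrial DNA is a small circle, present in many copies per cell, that encodes subunits of the respiratory chain and ATP synthase together with the rRNAs and tRNAs needed to translate them. Both strands are transcribed into long precursors that span many genes. The tRNAs, which lie between the other genes, are cut out and so release mRNAs and rRNAs, and most mRNAs then receive a short poly(A) tail. Hepatocytes are rich in mitochondria, which house much of the liver's energy, amino acid and urea metabolism.

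A few sequences show what the counts can and cannot separate. Part of the mitochondrial chromosome has a near-identical copy in the nuclear genome, and mt-Nd3 is shown beside its copy, the pseudogene Gm28438, over their first 61 bases. The capital marks the only base that differs over the 345 bases they share (T3C, counted from 1 at the first base, with the mitochondrial base first). mt-Nd3 lies at chrMT:9459-9806 on the plus strand.

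mt-Nd3: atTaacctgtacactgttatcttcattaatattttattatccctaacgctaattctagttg
Gm28438: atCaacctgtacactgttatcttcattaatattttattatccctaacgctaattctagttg

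mt-Atp8 (chrMT:7766-7969, plus strand) is shown whole, since it had the lowest level of all mRNAs and shares bases with its neighbour. Capitals mark the last 43 bases, which are also the first 43 of mt-Atp6.

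mt-Atp8: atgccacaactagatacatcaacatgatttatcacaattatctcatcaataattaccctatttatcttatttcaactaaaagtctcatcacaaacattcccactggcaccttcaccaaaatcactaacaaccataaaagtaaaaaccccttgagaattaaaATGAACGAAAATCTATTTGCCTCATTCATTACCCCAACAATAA

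The tRNAs shown are mt-Tn for asparagine (chrMT:5089-5159, minus strand), which was the only gene called in a comparison, and the 3 with the most reads. These 3 are mt-Tw for tryptophan (chrMT:4950-5016, plus strand), mt-Tp for proline (chrMT:15356-15422, minus strand) and mt-Ts1 for serine (chrMT:6870-6938, minus strand). Capitals mark the anticodon, found as the only GTT, TCA, TGG or TGA, in the order of the lines, that starts within bases 28 to 37. All sequences are GENCODE M21 transcripts (GRCm38), 5′ to 3′ along each gene, and the listed mitochondrial genes have the same coordinates there as in the tables, whose build is GRCm39.

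mt-Tn: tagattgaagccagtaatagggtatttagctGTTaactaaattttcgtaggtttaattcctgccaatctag
mt-Tw: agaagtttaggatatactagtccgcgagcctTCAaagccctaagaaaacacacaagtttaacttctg
mt-Tp: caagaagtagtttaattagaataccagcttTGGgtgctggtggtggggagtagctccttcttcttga
mt-Ts1: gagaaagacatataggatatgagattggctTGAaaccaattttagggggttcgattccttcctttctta

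Levels per length spanned more than 3 orders of magnitude among the mRNAs, a span that rests on mt-Atp8 alone (mean 7.03 FPKM). The next lowest mean was 56.6 FPKM for mt-Nd4l. Both genes lie in a copied stretch whose counts are uncertain, as described below. Among the 5 mRNAs outside that stretch, means ran from 491 to 16708 FPKM. mt-Co1, the catalytic subunit of cytochrome c oxidase (complex IV), had the highest mean at 36510 ± 26396 FPKM (SD, n = 25 libraries) and took 36.1% to 50.1% of the mitochondrial mRNA reads of a library. It was above the next gene, mt-Cytb, the cytochrome b of complex III (16708 ± 10634 FPKM), in 25 of 25 libraries. mt-Nd1 followed at 14633 ± 8557 FPKM, mt-Nd2 at 9135 ± 5972 FPKM, mt-Nd4 at 6937 ± 4361 FPKM and mt-Nd5 at 4256 ± 3300 FPKM (SD, n = 25 each), all membrane subunits of NADH dehydrogenase (complex I). mt-Cytb exceeded mt-Nd1 in 20 of 25 libraries, whereas the steps from mt-Nd1 down to mt-Nd5 kept their order in 25 of 25.

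The remaining mRNAs were lower. mt-Atp6, the proton channel subunit of ATP synthase, averaged 1762 ± 1879 FPKM, and mt-Co3 and mt-Co2, the other core subunits of complex IV, averaged 1222 ± 1334 and 1221 ± 1122 FPKM (SD, n = 25 each). These genes could not be ordered, since mt-Co3 exceeded mt-Co2 in 13 of 25 libraries and mt-Atp6 exceeded mt-Co3 in 18. mt-Nd6, the mRNA of the minus strand, averaged 491 ± 345 FPKM. mt-Nd3 averaged 131 ± 85.2 FPKM, mt-Nd4l 56.6 ± 41.2 FPKM and mt-Atp8, a small subunit of ATP synthase, 7.03 ± 6.996 FPKM (SD, n = 25 each). mt-Atp8 had 4 to 93 reads per library and was below mt-Nd4l in all 25.

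**Figure D1:**
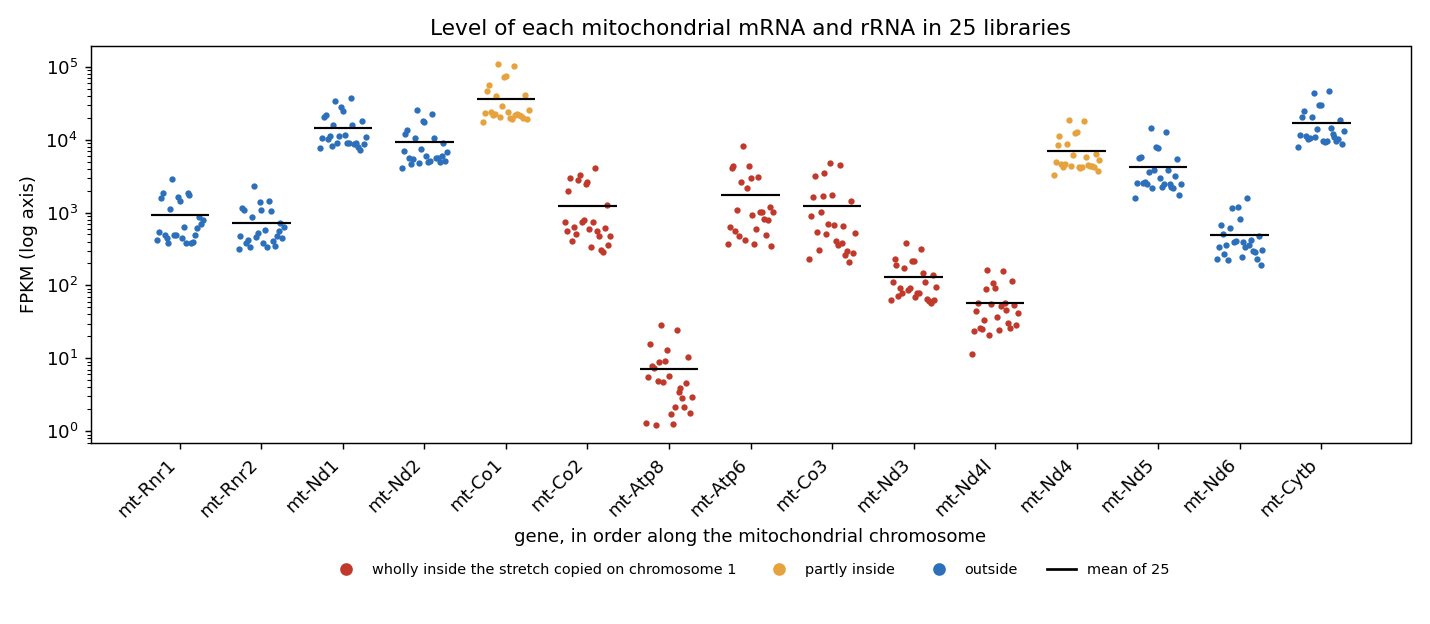
Level of the 13 mitochondrial mRNAs and 2 rRNAs in FPKM (log axis), with 1 point per library (n = 25, libraries side by side within each gene) and the mean as a line, in gene order; colours show whether the gene lies in the stretch copied on chromosome 1. The 6 genes wholly inside that stretch have means of at most 1762 FPKM, while mt-Co1 and mt-Nd4, partly inside, and 4 of the 5 mRNAs outside have means of 4256 FPKM or more.

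Of the 7 mRNAs with the lowest means, all but mt-Nd6 lie in 1 stretch that has a nuclear copy. The tables list 7 pseudogenes side by side on chromosome 1 (chr1:24650616-24655278, minus strand, GRCm39). Their order matches chrMT:6381-11043, and their spacing matches it closely but not to the base. That stretch of 4663 bases was projected from the mt-Co2 pair, so its limits are approximate. mt-Co2, mt-Atp8, mt-Atp6, mt-Co3, mt-Nd3 and mt-Nd4l lie wholly inside, and mt-Co1 and mt-Nd4 lie partly inside. The 6 genes hold 26.3% of the bases of the mRNA class but took 2.55% of its reads. Every 50-base window of mt-Co2 occurs in a nuclear transcript too, as do 99.9% of those of mt-Co3, 99.5% of mt-Atp6, 98.8% of mt-Nd4l and 98.0% of mt-Nd3. The share was 62.2% for mt-Nd4, 51.1% for mt-Co1, 8.2% for mt-Nd2, 7.6% for mt-Nd5 and 1.0% for mt-Rnr2, and 0 for the other mRNAs and mt-Rnr1. mt-Atp8 is among those at 0, although it lies wholly inside the stretch. The search covered annotated transcripts only, and no listed pseudogene spans the part that matches most of mt-Atp8. The 43 bases it shares with mt-Atp6, which the copy of mt-Atp6 also holds, are shorter than the window of 50. The 0 therefore does not show that mt-Atp8 lacks a nuclear copy.

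The copies Gm28661 (of mt-Co2), Gm10925 (of mt-Atp6), Gm28437 (of mt-Co3) and Gm10222 (of mt-Nd4l) had no difference from the mitochondrial gene over 681, 678, 783 and 294 aligned bases. Reads were nevertheless listed for each member of a pair. Gm28438 took a median of 70.1% of the reads of its pair with mt-Nd3 over the 25 libraries, Gm10222 54.2% with mt-Nd4l and Gm28437 34.0% with mt-Co3. Gm28661 took 31.1% with mt-Co2 and Gm10925 29.7% with mt-Atp6. For the genes partly inside, the copies took 0.751% (Gm28439 with mt-Nd4) and 0.659% (Gm29216 with mt-Co1). How reads that match more than 1 place were treated is not given in the sources used here. The levels of the 6 genes inside the stretch are therefore uncertain. With the reads of a copy added, the pairs stood at a median of 5.69% of the level of mt-Co1 per length for mt-Atp6, 4.18% for mt-Co2, 3.66% for mt-Co3, 1.14% for mt-Nd3 and 0.323% for mt-Nd4l. The same quantity was 19.95% for mt-Nd4.

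**Figure D2:**
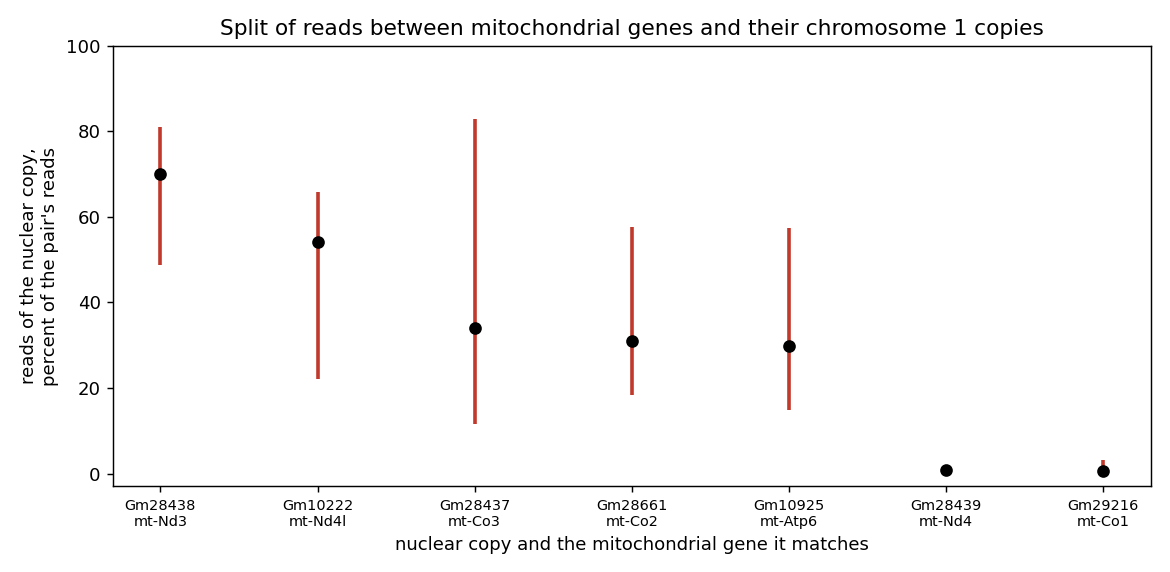
Reads listed for each chromosome 1 copy as a percent of the reads of the pair it forms with a mitochondrial gene; points are medians and lines run from the lowest to the highest of 25 libraries. Copies of the 5 genes wholly inside the stretch that have a listed copy took medians of 29.7% to 70.1%, and those of mt-Nd4 and mt-Co1 under 1%.

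The genes inside the stretch also varied more relative to mt-Co1. The SD of the log2 ratio to mt-Co1 over 25 libraries had a median of 0.66 over the 6 genes inside (0.32 to 0.79) and 0.24 over the 5 outside (0.16 to 0.33). The 6 genes took 1.72, 1.96, 3.60, 4.10 and 1.42% of mRNA reads in DEN_CAF_SOR and 1.98, 2.09, 3.81 and 3.15% in DEN_SOR. They took 1.76, 2.71, 3.69, 2.33 and 2.07% in DEN_CAF, from 1.26 to 2.57% with a median of 1.71% in DEN, and 1.19, 1.73, 2.15, 1.17 and 1.72% in Untreated. The groups overlapped, and in each of them library 3 or library 4 was the highest. When the reads of the copies were added to their mitochondrial partners before testing, an alternative chosen after seeing the data, mt-Tn was again the only mitochondrial gene called in any comparison below.

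mt-Rnr1 and mt-Rnr2, the small and large subunit rRNAs of the mitochondrial ribosome, had means below that of mt-Co2 and above that of mt-Nd6. mt-Rnr1 (chrMT:70-1024) averaged 919 ± 655 FPKM and mt-Rnr2 (chrMT:1094-2675) 724 ± 470 FPKM (SD, n = 25 each). mt-Co2 exceeded mt-Rnr1 in 17 of 25 libraries and mt-Rnr2 exceeded mt-Nd6 in 22. Of the rRNAs, mt-Rnr1 was the higher in 23 of 25 libraries, with a ratio per length of 0.921 to 1.68 and a median of 1.18. The library kit is named in the labels only by its brand, and it is not stated whether rRNA was removed or poly(A) RNA selected.

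The 20 tRNAs together had 29856 reads over all 25 libraries, against 53724471 for the mRNAs and 907631 for the rRNAs. mt-Tw with 6996 reads, mt-Tp with 6063 and mt-Ts1 with 4004 held 57.2% of the tRNA reads. The median over libraries was under 10 reads for 10 of the 20 tRNAs. The 8 tRNAs of the minus strand held 51.9% of tRNA reads on 40.2% of tRNA bases. The sources used here do not say whether counting used the strand, so a minus-strand gene cannot be told apart from antisense RNA of the other strand. mt-Td, mt-Tk, mt-Tg, mt-Tr and mt-Th were too low to be tested, with 1 to 25 reads in sum. All of these but mt-Th, and also mt-Ts1, lie wholly inside the stretch copied on chromosome 1. Their counts are therefore uncertain, as are those of the 6 mRNAs there, and a low count need not be a low level.

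Mitochondrial reads took from 5.65% to 34.8% of a library. The mRNAs made up nearly all of this share, which was 5.65, 8.07, 15.7, 18.7 and 7.94% in DEN_CAF_SOR libraries 1 to 5 and 7.43, 7.35, 13.6 and 34.8% in DEN_SOR libraries 1 to 4. It was 7.03, 9.81, 23.6, 23.1 and 7.82% in DEN_CAF libraries 1 to 5. DEN ran from 6.74 to 33.4% with a median of 7.44%, and Untreated libraries 1 to 5 had 6.80, 6.91, 13.5, 6.36 and 8.69%. The groups overlapped. Each library above 10% carried the number 3 or 4, and of the libraries with these numbers only DEN 4 (9.58%) and Untreated 4 (6.36%) were below it. The labels do not say what a number stands for.

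Group means followed these libraries. The share averaged 11.2 ± 5.66% in DEN_CAF_SOR (SD, n = 5), 15.8 ± 13.01% in DEN_SOR (SD, n = 4), 14.3 ± 8.34% in DEN_CAF (SD, n = 5), 11.9 ± 10.6% in DEN (SD, n = 6) and 8.45 ± 2.96% in Untreated (SD, n = 5). Without the libraries numbered 3 and 4 the means were 7.22, 7.39, 8.22, 7.09 and 7.47% in the same order. That leaves out all of the libraries with the highest shares, so the closeness of these means follows from the choice and tests nothing. The rRNAs took 0.0890% to 0.633% of a library and the tRNAs 0.00272% to 0.0209%. The lowest and highest library differed 6.17-fold in the share of all mitochondrial reads. Related to the reads of all other genes, the mRNAs ran from 5.88 to 52.4 per 100, an 8.91-fold range.

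**Figure D3:**
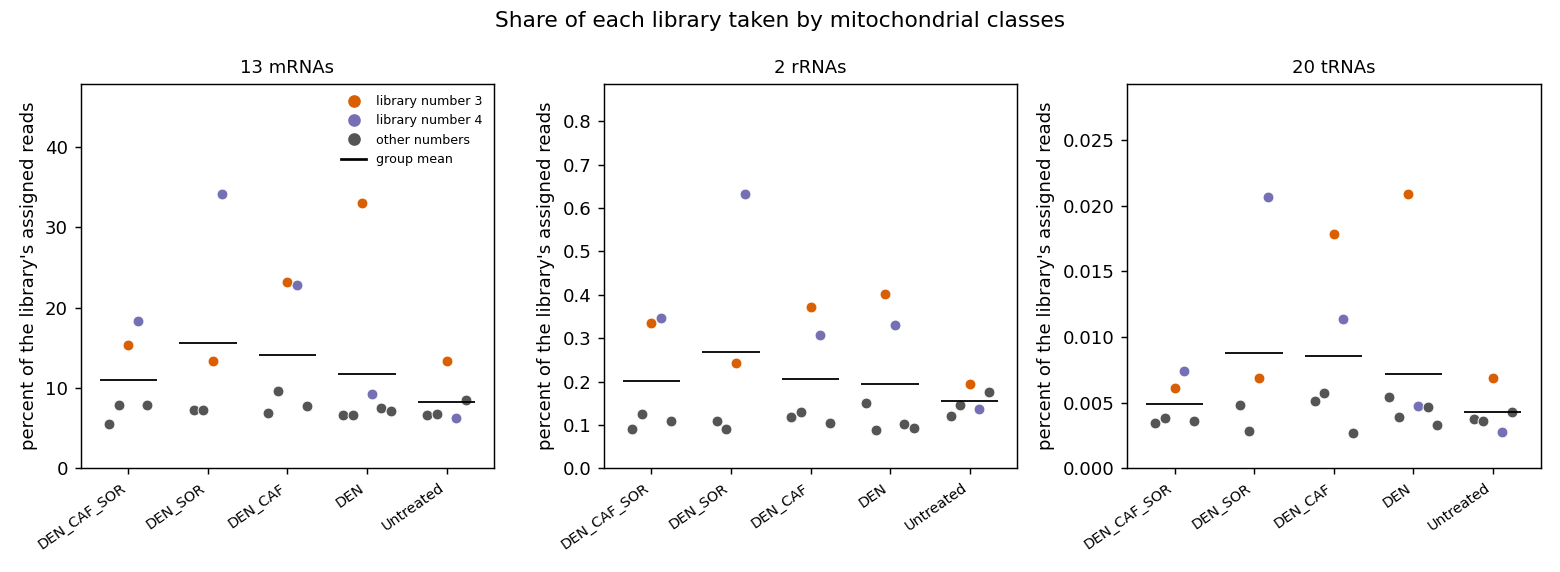
Percent of assigned reads taken by the mitochondrial mRNAs, rRNAs and tRNAs, 1 point per library, by group; lines are group means and colours mark the library numbers 3 and 4. In DEN_CAF_SOR, DEN_SOR and DEN_CAF both coloured points lie above the grey ones in all 3 classes, while DEN 4 lies among the grey points for tRNA and Untreated 4 is the lowest of its group for mRNA and tRNA.

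Other measures were also set out by library number, without a test. The chromosome 1 copies took a median of 0.282% of reads in the 5 libraries numbered 3 (0.139% to 0.529%), 0.218% in the 5 numbered 4 (0.0912% to 0.571%) and 0.0956% in the other 15 (0.0703% to 0.267%). Malat1, a long RNA retained in the nucleus, had medians of 49.3 FPKM (46.3 to 88.2), 39.1 FPKM (34.4 to 92.7) and 75.6 FPKM (37.8 to 119) in the same sets when mitochondrial reads were left out of the library total. The sets overlapped in both measures. Their part in the result was not tested. Nuclear-encoded subunits of complexes I, III, IV and V took 1.05% to 2.11% of the reads of all genes outside the mitochondrial chromosome, a 2.01-fold range.

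The spread between libraries was wide for the members compared with other genes. The SD of log2(FPKM + 1) over 25 libraries had a median of 0.81 over the 13 mRNAs, 0.84 over the 2 rRNAs and 1.05 over the 15 tRNAs tested, against 0.31 over all 12741 genes tested. Ratios between the sums of the classes had narrower ranges than the shares of the library. rRNA reads per 100 mRNA reads ran from 1.21 to 3.58 (2.94-fold) and tRNA reads per 1000 mRNA reads from 0.353 to 0.830 (2.35-fold). The shares ranged 6.15-fold for mRNAs, 7.12-fold for rRNAs and 7.69-fold for tRNAs. Ratios of single members were not all steady. For members with reads in every library, the SD of the log2 ratio to mt-Co1 ran from 0.16 (mt-Cytb) to 1.36 (mt-Tl2).

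In DEN library 4 the composition differed from the other libraries. rRNA reads per 100 mRNA reads were 3.58 there and at most 2.28 in the other 24 libraries. mt-Nd1 stood at 73.9% of the level of mt-Co1 per length, against 31.4 to 50.8% elsewhere, and mt-Co1 took 36.1% of mRNA reads, against 44.7 to 50.1% elsewhere. The same library had the highest albumin mRNA (58618 FPKM), the highest Afp, a fetal liver and tumour marker (141 FPKM, with 32.1 FPKM in DEN 3 and at most 3.81 FPKM elsewhere), and the lowest share of nuclear respiratory subunits (1.05%). Their part in the result was not tested. mt-Nd6 relative to mt-Nd5, the gene whose end it overlaps by 14 bases on the opposite strand, ran from 7.26 to 18.2% per length and overlapped between all groups.

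**Figure D4:**
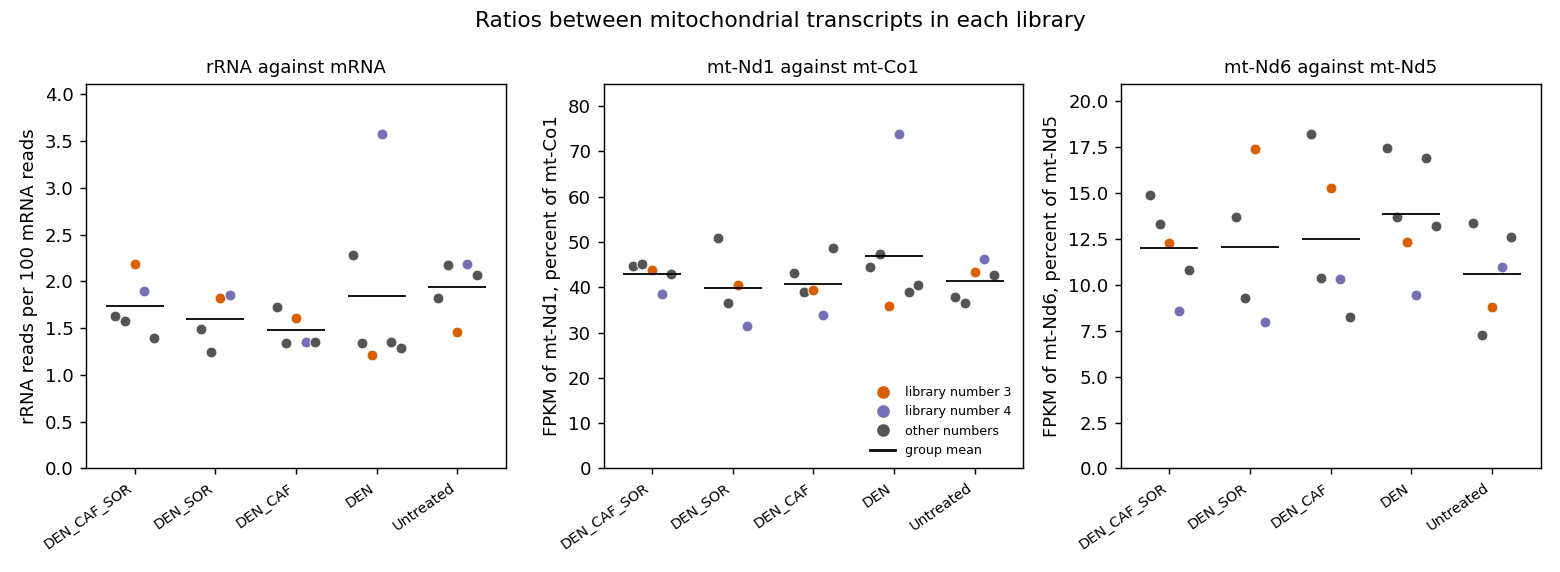
Ratios between mitochondrial transcripts, 1 point per library, by group: rRNA reads per 100 mRNA reads, and mt-Nd1 and mt-Nd6 as percent of the FPKM of mt-Co1 and mt-Nd5; lines are group means. DEN library 4 lies apart at 3.58 and 73.9% in the first and second panel.

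mt-Co1 had 17174, 23202, 46325, 55986 and 24090.3 FPKM in DEN_CAF_SOR libraries 1 to 5 and 21794, 22379, 39205 and 108959 FPKM in DEN_SOR libraries 1 to 4. It had 20529, 28532, 72066, 73900.2 and 23579.9 FPKM in DEN_CAF, from 19249.9 to 103841 FPKM with a median of 21789.6 FPKM in DEN, and 20819, 19546, 41142, 19049 and 25347 FPKM in Untreated. The highest values stood in libraries 3 and 4 of the groups given drugs, in DEN 3 and in Untreated 3, as for the share of all mitochondrial reads, and the groups overlapped.

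mt-Nd6 had 233, 340.1, 677, 499.9 and 272 FPKM in DEN_CAF_SOR libraries 1 to 5 and 357, 225, 617 and 1151 FPKM in DEN_SOR libraries 1 to 4. It had 399, 402, 1202, 803 and 243 FPKM in DEN_CAF, from 298 to 1559 FPKM with a median of 375 FPKM in DEN, and 285, 232, 471, 189 and 309 FPKM in Untreated. Libraries 3 and 4 were again the highest in the groups given drugs, DEN 3 stood alone in DEN, and the groups overlapped.

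mt-Rnr2 had 320.4, 471, 1161, 1089 and 387 FPKM in DEN_CAF_SOR libraries 1 to 5 and 416, 335, 856 and 2274 FPKM in DEN_SOR libraries 1 to 4. It had 457, 523, 1374, 1090.05 and 387 FPKM in DEN_CAF, from 332 to 1432 FPKM with a median of 493 FPKM in DEN, and 472, 551, 709, 444 and 637 FPKM in Untreated. Here DEN 4 (1043 FPKM) joined DEN 3 at the top of its group. The groups overlapped.

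The carcinogen alone was compared with saline first. For DEN against Untreated, 1 of 30 mitochondrial genes was called by limma (adjusted p under 0.05 over all genes), where 2.04% of all genes tested were called. edgeR and DESeq2 also called 1 of 30, where they called 4.69% and 8.16% of all genes. The gene was mt-Tn, the tRNA for asparagine, with each tool, and 2 of 30 had an unadjusted p under 0.05 by limma, against 16.5% of all genes. mt-Tn had 1 to 8 reads per DEN library with a median of 4 reads, and 0 reads in each of the 5 Untreated libraries. Of the 30 genes, 1 (mt-Tn) had groups free of overlap, as did 3.93% of all genes tested.

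The call of mt-Tn rests on 26 reads in the 6 DEN libraries against 0 in the 5 Untreated libraries. Pooled over mice and scaled to assigned reads, 26 reads against an assumed 3 reads in the Untreated group would be a 6.68-fold difference. This is not a lower bound, since it leaves out the spread between mice and the counting error of the 26 reads. The limma adjusted p was 0.0265, edgeR's quasi-likelihood test gave 0.0453 and DESeq2 gave 0.0196. The call was lost without the 3 Untreated libraries with Xist reads (limma adjusted p = 0.243). It was also lost when DEN library 2, 3 or 5 or Untreated library 1, 3, 4 or 5 was left out, with adjusted p up to 0.0610. In the drug groups mt-Tn had 0, 2, 0, 7 and 0 reads in DEN_CAF_SOR, 1, 1, 1 and 5 reads in DEN_SOR and 4, 4, 7, 1 and 2 reads in DEN_CAF.

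The median log2 fold change for DEN against Untreated was 0.30 over the mRNAs (0.09 to 0.69), 0.06 over the rRNAs (0.04 to 0.08) and 0.63 over the tRNAs tested (-0.23 to 1.92), against 0.03 over all genes tested. Fold changes here are differences of log2(FPKM + 1). None of the 13 mRNAs or 2 rRNAs was called, and their smallest unadjusted p values were 0.146 and 0.870 by limma. Without the libraries numbered 3 and 4 the medians were -0.08 over the mRNAs, -0.48 over the rRNAs and 0.50 over the tRNAs, against 0.14 over all genes tested, so the direction turned for mRNAs and rRNAs. Without the 3 Untreated libraries with Xist reads they were 0.50, 0.27 and 1.09 in the same order of classes, against 0.12 over all genes. With edgeR they were 0.57, 0.35 and 0.92, and the rRNA median was -0.03 with library totals scaled by TMM factors.

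Markers of cell types were compared between these groups too. Among those tested for hepatocytes, endothelium, Kupffer cells and macrophages, and stellate cells and fibroblasts, 0 were called. For fat, pancreas, and T, NK and B cells, 0 of those tested were called as well. The 6 bile duct markers summed to 16.8 to 86.2 FPKM in DEN and 6.82 to 13.1 FPKM in Untreated, with no overlap, and of the 5 tested only Sox9 was called (log2 fold change 0.85, SE 0.20, limma adjusted p = 0.0210). The red blood cell markers summed to 237 to 1077 FPKM in DEN and 714 to 2327 FPKM in Untreated, which overlapped, and 0 of the 5 tested were called. Their part in the result was not tested.

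**Figure D5:**
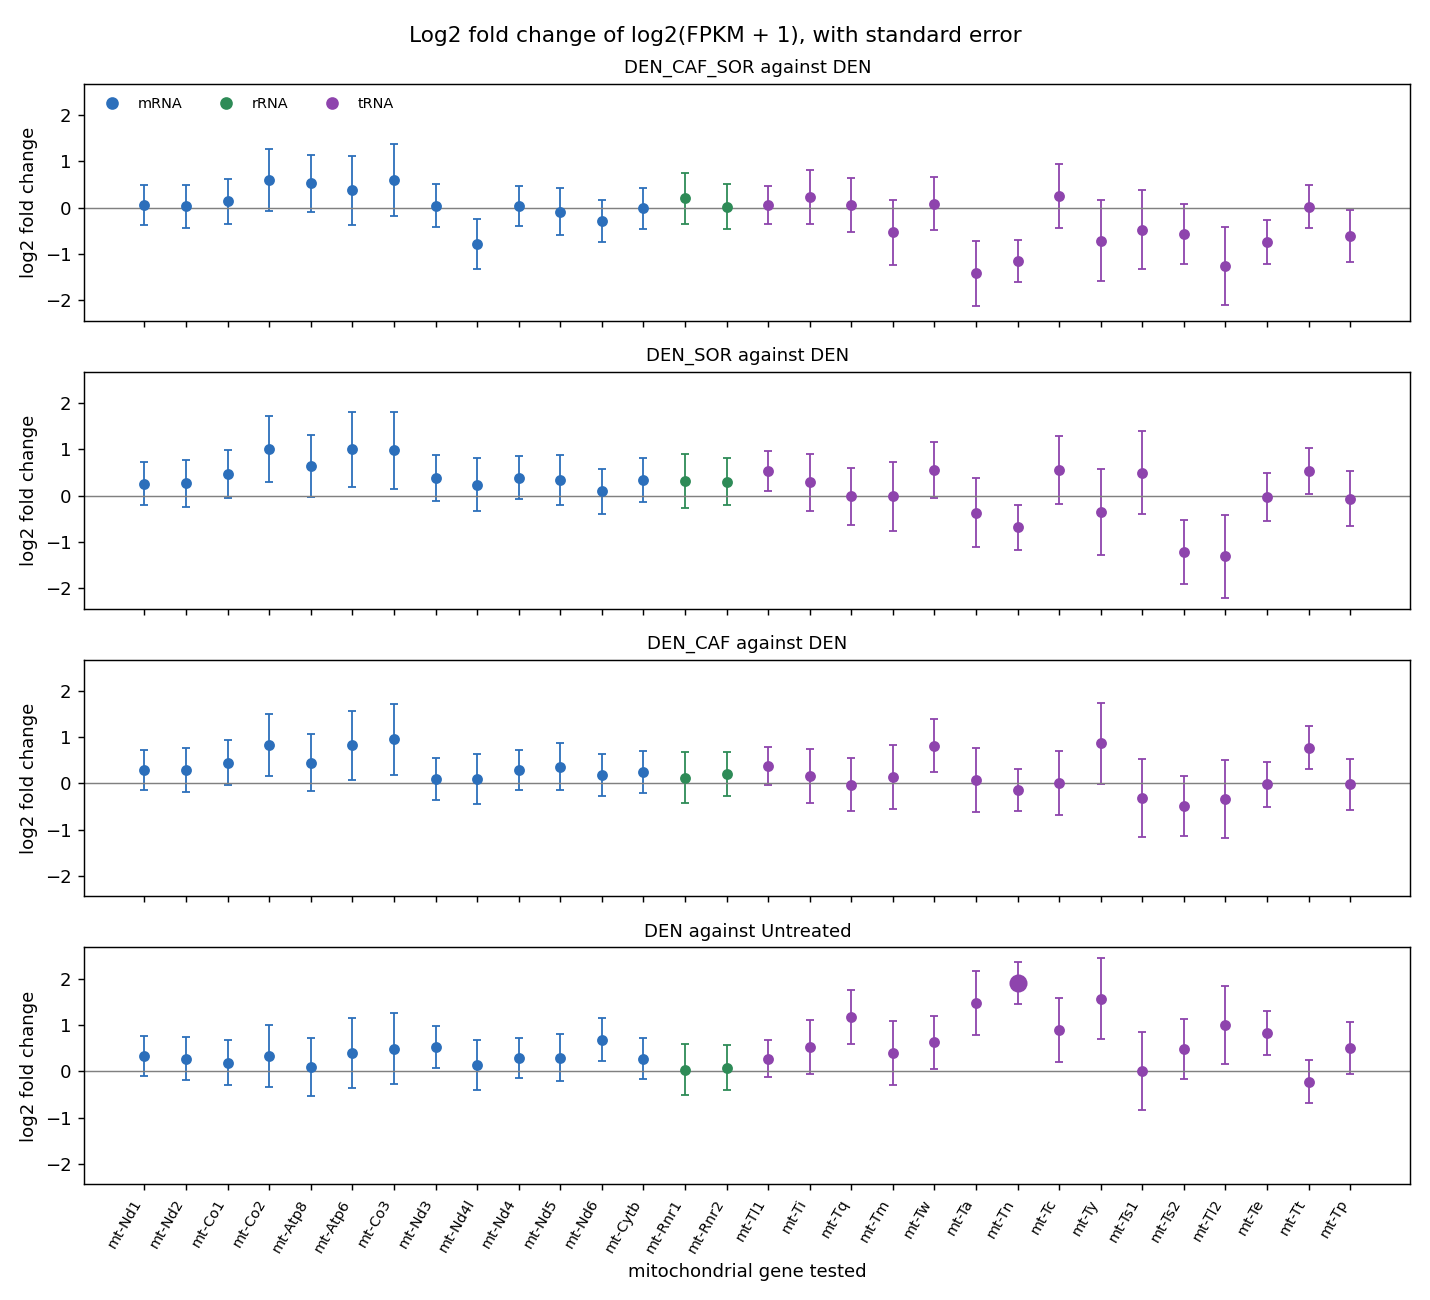
Log2 fold change on the log2(FPKM + 1) scale with its standard error from limma for the 30 mitochondrial genes tested, in 4 comparisons; the larger point marks the only call. mt-Tn stands at 1.92 for DEN against Untreated, and no other point passed the threshold.

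Each drug regimen was compared with the carcinogen alone, and these comparisons share the 6 DEN libraries. For DEN_CAF against DEN, 0 of 30 mitochondrial genes were called by limma, edgeR or DESeq2, where these called 0.00785%, 0.00785% and 0.0785% of all genes. By limma 0 had an unadjusted p under 0.05 (2.81% of all genes), and 0 of 30 had groups free of overlap (0.267% of all genes). The median log2 fold change was 0.29 over the mRNAs, 0.16 over the rRNAs and 0.01 over the tRNAs, against 0.02 over all genes tested. In the same order of classes the medians were 0.20, 0.15 and -0.19 without the libraries numbered 3 and 4, and 0.14, 0.03 and 0.18 with edgeR. The smallest p belonged to mt-Tt, the tRNA for threonine, with a log2 fold change of 0.78 (SE 0.47, limma unadjusted p = 0.110, adjusted p = 1.00).

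For DEN_SOR against DEN, 0 of 30 were called by limma, edgeR or DESeq2, where these called 0%, 0% and 0.243% of all genes. By limma 0 had an unadjusted p under 0.05 (6.19% of all genes), and 0 of 30 had groups free of overlap (0.699% of all genes). The medians were 0.38 over the mRNAs, 0.31 over the rRNAs and -0.02 over the tRNAs, against -0.02 over all genes tested. They were 0.08, -0.09 and -0.48 without the libraries numbered 3 and 4, and 0.54, 0.59 and 0.21 with edgeR. The tRNA median was 0.05 with library totals taken without mitochondrial reads. mt-Ts2, the second serine tRNA, had the smallest p, with a log2 fold change of -1.23 (SE 0.69, limma unadjusted p = 0.0881, adjusted p = 0.872). It had 2, 0, 4 and 5 reads in DEN_SOR and 4 to 12 reads in DEN, so counting error is large. The 2 groups overlapped.

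For DEN_CAF_SOR against DEN, 0 of 30 were called by limma, edgeR or DESeq2, each of which called 0% of all genes. By limma 1 had an unadjusted p under 0.05 (2.72% of all genes), and 0 of 30 had groups free of overlap (0.29% of all genes). The medians were 0.04 over the mRNAs, 0.11 over the rRNAs and -0.54 over the tRNAs, against 0.01 over all genes tested. They were -0.03, 0.04 and -0.40 without the libraries numbered 3 and 4, and -0.11, 0.03 and -0.77 with edgeR. mt-Tn had the smallest p, with a log2 fold change of -1.15 (SE 0.46, limma unadjusted p = 0.0188, adjusted p = 1.00). Its reads in these groups overlapped, as given above.

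Adding a drug to the other gave no call either. For DEN_CAF_SOR against DEN_SOR, 0 of 30 were called by limma, edgeR or DESeq2, where these called 0%, 0% and 0.00785% of all genes. By limma 0 had an unadjusted p under 0.05 (3.39% of all genes), and 0 of 30 had groups free of overlap (0.856% of all genes). The medians were -0.36, -0.20 and -0.47 over mRNAs, rRNAs and tRNAs, against -0.06, 0.13 and 0.09 without the libraries numbered 3 and 4 and -0.62, -0.55 and -0.99 with edgeR. mt-Nd4l had the smallest p (log2 fold change -1.02, SE 0.60, limma unadjusted p = 0.0997, adjusted p = 1.00). It had 11.6, 23.6, 44.5, 57.6 and 26.4 FPKM in DEN_CAF_SOR and 25.0, 33.3, 88.9 and 160.7 FPKM in DEN_SOR, and the groups overlapped.

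For DEN_CAF_SOR against DEN_CAF, 0 of 30 were called by limma, edgeR or DESeq2, where these called 0%, 0% and 0.00785% of all genes. By limma 2 had an unadjusted p under 0.05 (2.95% of all genes), and 0 of 30 had groups free of overlap (0.997% of all genes). The medians were -0.26, -0.05 and -0.68 over mRNAs, rRNAs and tRNAs, against -0.18, -0.11 and -0.08 without the libraries numbered 3 and 4. With edgeR they were -0.30, 0.00 and -0.86. mt-Tn had the smallest p (log2 fold change -1.02, SE 0.48, limma unadjusted p = 0.0440, adjusted p = 1.00). The caffeine by sorafenib interaction gave 0 of 30 calls by limma, edgeR or DESeq2, where these called 0%, 0% and 0.0863% of all genes, with 0 at an unadjusted p under 0.05 by limma (3.97% of all genes). The class medians were -0.65, -0.36 and -0.66, against -0.25, -0.02 and 0.34 without the libraries numbered 3 and 4 and -0.78, -0.59 and -1.20 with edgeR. Its smallest p belonged to mt-Tt (log2 interaction -1.29, SE 0.70, limma unadjusted p = 0.0773, adjusted p = 0.992). The F-test for any difference among the 5 groups called 0 of 30 by limma, edgeR or DESeq2, where these called 0.95%, 2.17% and 6.58% of all genes, with 1 at an unadjusted p under 0.05 by limma (11.4% of all genes). mt-Tn was lowest there (limma adjusted p = 0.119).

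Nuclear genes that serve the mitochondrial chromosome were read from lists. Of 71 nuclear subunits that join the mitochondrial ones in the respiratory chain and ATP synthase, 36 of complex I, 9 of complex III, 11 of complex IV and 15 of complex V were tested, and 0 were called in any of the 7 comparisons. Their medians for DEN_CAF_SOR against DEN were 0.18, 0.19, 0.26 and 0.21 on the log2 scale, against 0.01 over all genes tested. For DEN_CAF_SOR against DEN_SOR they were 0.21, 0.21, 0.32 and 0.24, against 0.03. For DEN against Untreated they were -0.07, -0.12, -0.08 and -0.15, against 0.03. DEN_CAF_SOR libraries 3 and 4 had the highest shares of nuclear respiratory subunits (2.11% and 1.92%), and their part in these medians was not tested. Of 12 mitochondrial translation factors, 0 were called. Of the 39 listed genes for transcription, processing and copying of mitochondrial DNA, 37 were tested, and 1 was called. This was Mterf2, a mitochondrial transcription termination family member, which rose in DEN_CAF against DEN by 0.91 on the log2 scale (SE 0.15, limma adjusted p = 0.0451). It was the only gene that limma called there among all 12741, and the F-test over the 5 groups called it too (limma adjusted p = 0.0211). Over all genes, limma called 2.04% for DEN against Untreated, 0.00785% for DEN_CAF against DEN and 0% in the other 5 comparisons, so counts of 0 in these lists lie near the share over all genes.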

How the data were processed

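Liver RNA of 25 mice was sequenced, aligned with HISAT2 2.0.5 to GRCm39 and counted with featureCounts 1.5.0-p3, per the submitters' processing notes. The deposited tables are named for FPKM, but each column is a signal in which the authors divided whole reads per gene by 1 size factor per library: 100% of values were whole multiples of 1 step within 0.01 read. Read counts were recovered from the deposited values. FPKM was computed from these counts, the library's assigned reads and the listed gene length.

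Genes in all 5 tables that reached 1 FPKM in 4 or more libraries (12741) were tested two-sided by limma 3.58.1 (R 4.3.3). The model took log2(FPKM + 1) values, 25 libraries and a coefficient for every group, which left 20 residual degrees of freedom, with trended eBayes. P-values were adjusted by Benjamini-Hochberg at 0.05 within a comparison. They set the difference between groups against the spread between libraries within groups. edgeR 4.0.16 and DESeq2 1.42.0 on recovered reads, other scalings and filters, and left-out libraries were alternatives. The design had assumed deposited FPKM, and its test was kept on the computed FPKM. The limma step was tested on simulated data. Changes were planted only in genes with far more reads than mt-Tn, so this says nothing about genes as low as mt-Tn.

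The members and lists were chosen with earlier results of these data known. All mRNAs and rRNAs were named, with the 3 tRNAs highest in reads, any called member and, where none was called, the member with the smallest p. List symbols were matched through RefSeq synonyms where needed. Shared windows of 50 bases were sought in GENCODE M21 transcripts.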

Additional observations from a re-analysis of the deposited data

Results flagged for a closer look

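Within each group, 15 measures were checked for a library far from the others, which made 75 sets, and 9 were marked. Chance alone marks about 1 set in 20, and measures of 1 library are not independent of each other.

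DEN library 3 stood far above the other 5 DEN libraries. Its share of all mitochondrial reads was 33.4%, against 6.74% to 9.58% in the others, with 33.0% for the mRNAs and 0.0209% for the tRNAs. mt-Co1 had 103841 FPKM there, against 19249.9 to 22483 FPKM, and mt-Nd6 had 1559 FPKM, against 298 to 419 FPKM. The chromosome 1 copies took 0.529% of its reads, against 0.0724% to 0.129%.

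DEN library 4 differed in composition. mt-Nd1 stood at 73.9% of mt-Co1 per length, against 35.8% to 47.4% in the other DEN libraries, and mt-Co1 took 36.1% of the mRNA reads, against 44.7% to 48.6%.

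In Untreated library 3, mt-Co1 had 41142 FPKM, against 19049 to 25347 FPKM in the other 4.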

How the results depend on the processing

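Every comparison other than DEN against Untreated and the F-test over 5 groups had 0 mitochondrial genes called under each alternative run. For DEN against Untreated the count of 1 fell to 0 with no expression filter, without the Untreated libraries with Xist reads (limma and edgeR), and with edgeR without libraries numbered 3 and 4. Both of these edgeR alternatives were chosen after seeing the data. It ranged from 0 to 1 when each library was left out, and the count of the F-test, 0, also ranged from 0 to 1 and was 1 with a pseudocount of 0.1. Over 39 alternatives the adjusted p of mt-Tn ran from 0.00270 to 0.315, and 28 kept the call. The cause was not tested. Reversal was checked for the member with the smallest p in each comparison, and none of these fold changes reversed. Some class medians did change sign, as given above. The fold changes of Mterf2 and Sox9 were not checked under the alternatives. Leaving out 1 library changed the mean share of all mitochondrial reads in DEN from 11.9% to between 7.59% and 12.9%. In DEN_SOR it changed from 15.8% to between 9.47% and 18.6%. Every group mean share moved by less than 1 SD, but this does not show that the means were steady. Leaving 1 library out cannot move a mean by a full SD, and the SDs include the libraries numbered 3 and 4. Over all genes, DEN against Untreated gave 260 calls by limma, 598 by edgeR and 1040 by DESeq2.

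With the number of the labels as a replicate block, 1 gene was called for DEN against Untreated (mt-Tn, log2 fold change 2.13, adjusted p = 0.0249) and 0 in the other comparisons. The labels do not say that a number marks a shared source, and the pairing did not reach a correlation above 0.1 in every pair. Of 46 same-number pairs 25 did (median 0.134, lowest -0.28), against 47 of 203 pairs of different numbers (median -0.0264), and 8 of 25 libraries correlated best with their own number. Low counts limit the tRNAs most, with a median under 10 reads for 10 of 20. These genes are 59 to 75 bases long. Whether their reads come from cut tRNAs or from uncut precursors was not tested, nor was whether more depth would raise them.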

Other observations

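Some tRNAs drew much of their count from a single library. mt-Th, the tRNA for histidine, had 25 reads in all, of which 20 stood in DEN 3, 4 in DEN_CAF 4 and 1 in DEN_CAF 3. mt-Ty, the tRNA for tyrosine, had 199 of its 525 reads in DEN_CAF 3, and 76 in DEN 3.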
